A study of Mus musculus with 69 samples.

Results

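The 9 genes followed here belong to the TGF-β and activin pathway, and were measured in 69 RNA sequencing libraries of mouse kidney. They were chosen by name: the ligand genes *Tgfb1*, *Tgfb2*, *Tgfb3*, *Inhba*, *Inhbb* and *Gdf15*, the receptor genes *Tgfbr1* and *Tgfbr2*, and the inhibitor *Smad7*. All 9 were found among the 24411 genes of the count table, and all 9 were among the 21175 genes tested. The mice carried Uprt in the Rosa26 locus behind a floxed stop and 1 Cre driver, as Hoxb7Cre;UPRTf/+ or, spelled as the labels do, Atp6b1v1Cre;UPRTf/+ (Atp6v1b1Cre below), and the kidney was the labelled tissue. Uprt lets Cre-positive cells build the uracil analog 4-TU into new RNA. Every mouse, controls included, received 430 mg/kg of 4-TU 4 hours before the kidney was taken, and tagged RNA was biotinylated and pulled down. Hoxb7Cre labels the collecting duct, and Atp6v1b1Cre labels intercalated and double-positive cells and, by the study's own reporter mice, a few scattered interstitial cells.

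There were 48 pulldowns and 21 libraries of total kidney RNA, the latter from control mice. Controls were given neither injury. In iAKI both renal pedicles were clamped for 10 minutes and 4-TU was given 24 hours later, and in vAKI food and water were restricted for 72 hours. At 5.5 months the Hoxb7Cre pulldowns came from 4 control, 4 iAKI and 3 vAKI males and from 4 control, 3 iAKI and 4 vAKI females. The Atp6v1b1Cre pulldowns came from 4 control, 3 iAKI and 4 vAKI males and from 4, 3 and 3 females. A further 2 female Hoxb7Cre and 3 male Atp6v1b1Cre control pulldowns were from mice of 3 months. Library totals ran from 12618062 to 30305464 counts. *Xist* and *Ddx3y* separated all mice by their labelled sex. Library numbers in the labels fall into 3 series, named A to C. Every injured Hoxb7Cre library is of series A, whereas the male controls of that driver are from A and B. Its female controls of 5.5 months are from A, B and C. The labels do not say which libraries share a mouse, so p-values measure the spread between libraries.

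TGF-β ligands are secreted in a latent form and, once released, bind the type II receptor Tgfbr2, which recruits and activates the type I receptor Tgfbr1. Activins, dimers of the β subunits encoded by *Inhba* and *Inhbb*, act through other receptors of the same family, and both branches pass their signal to the nucleus through Smad2 and Smad3, whereas the BMP branch uses Smad1, Smad5 and Smad8. *Smad7* is a target gene of both branches and encodes an inhibitor that blocks the receptors. In the kidney the pathway is best known for its part in fibrosis.

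RefSeq promoters (GRCm38.p6, 250 bases before to 50 bases after the start site) were found for 7 of the 9 genes. The promoters of 4 genes are shown, written 5′ to 3′ on the strand of the gene. *Inhbb* had the highest fold change after injury, and *Tgfbr1* was the receptor gene that rose after ischemia in male Hoxb7Cre mice. *Tgfb2* differed most between the sexes and *Gdf15* most between the drivers. A set of 7 motifs was searched on both strands, and capitals mark every match to a GC box, the Smad-binding core, an AP-1 site, a cAMP response element, an E-box, a TATA box or a forkhead site, whose letters are given after the sequences.
*Inhbb*, chr1:119422199-119422498, minus strand: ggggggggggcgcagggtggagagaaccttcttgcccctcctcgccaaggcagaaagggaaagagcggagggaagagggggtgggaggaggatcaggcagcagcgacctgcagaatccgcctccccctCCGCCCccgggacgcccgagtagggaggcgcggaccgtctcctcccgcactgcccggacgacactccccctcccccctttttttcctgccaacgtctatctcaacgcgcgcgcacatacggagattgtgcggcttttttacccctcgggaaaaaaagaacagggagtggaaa
*Tgfbr1*, chr4:47352972-47353271, plus strand: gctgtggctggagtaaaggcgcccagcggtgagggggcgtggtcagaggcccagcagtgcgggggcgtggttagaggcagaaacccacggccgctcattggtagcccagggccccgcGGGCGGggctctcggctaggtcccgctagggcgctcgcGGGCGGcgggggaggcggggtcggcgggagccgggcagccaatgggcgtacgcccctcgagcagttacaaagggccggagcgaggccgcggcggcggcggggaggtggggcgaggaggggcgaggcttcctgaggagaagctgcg
*Tgfb2*, chr1:186705940-186706239, minus strand: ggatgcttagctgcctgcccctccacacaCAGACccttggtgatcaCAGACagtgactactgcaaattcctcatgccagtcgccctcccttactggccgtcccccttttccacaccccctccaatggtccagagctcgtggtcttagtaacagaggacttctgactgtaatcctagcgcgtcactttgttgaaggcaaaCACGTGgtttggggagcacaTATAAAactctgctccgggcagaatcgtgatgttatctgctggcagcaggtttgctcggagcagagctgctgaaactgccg
*Gdf15*, chr8:70632407-70632706, minus strand: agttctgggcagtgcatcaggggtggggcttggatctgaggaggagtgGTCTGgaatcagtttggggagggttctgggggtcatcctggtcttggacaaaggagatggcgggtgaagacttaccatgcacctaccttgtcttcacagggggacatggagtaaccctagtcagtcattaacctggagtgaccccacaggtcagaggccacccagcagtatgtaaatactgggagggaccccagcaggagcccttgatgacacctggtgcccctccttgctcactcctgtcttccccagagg

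The *Inhbb* window held 1 GC box, and the *Tgfbr1* window shown held 2. A second RefSeq start of *Tgfbr1*, whose window is not shown, had 0 GC boxes and 1 Smad-binding core. A GC box, searched as GGGCGG, was present in 35.7% of 32851 promoters of this length. The *Tgfb2* promoter held 2 Smad-binding cores, searched as CAGAC and present at least once in 49.6% of all promoters. It also held an E-box, searched as CACGTG (7.15% of promoters), 51 bases before the start. A TATA box, searched as TATAAA (13.6%), lay 31 bases before the start. The *Gdf15* window shown held 1 Smad-binding core, on the opposite strand, as the capitals GTCTG show. The window of a second RefSeq start of *Gdf15*, not shown, held 1 Smad-binding core and 1 E-box. None of these 4 windows held an AP-1 site, searched as TGANTCA, which was in 7.81% of all promoters. The same was true of a cAMP response element, searched as TGACGTCA, which was in 1.79%, and of a forkhead site, searched as TGTTTAC, which was in 3.65%. No marked match overlapped with one of another motif. Such a match is a run of letters, not a site shown to be bound.

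The levels of the 9 genes in control kidney were compared first, as CPM, read counts divided by library size, with TMM scaling over the 69 libraries. Per kilobase of exon, *Tgfbr1* was the most abundant in total RNA, at a mean of 26.98 CPM per kb (range 20.06 to 35.0 over 21 libraries), followed by *Gdf15* at 20.44, *Tgfbr2* at 13.7 and *Smad7* at 8.807. *Tgfb1* (2.723), *Inhbb* (2.282), *Tgfb3* (1.42) and *Tgfb2* (0.905) came next, and *Inhba* was lowest, at 0.0270. Neighbours in this order overlapped in range, apart from *Smad7* and *Tgfb1* and from *Tgfb2* and *Inhba*. *Inhba* was at 0 to 11 counts a library in total RNA, so its changes are hard to measure at this depth. Exons of *Tgfb3* and *Tgfb2* overlap those of genes on the opposite strand by 420 and 124 bases, and the sources used here do not say whether the libraries kept strand, so reads there cannot be told apart. *Havcr1*, the injury marker KIM-1, was at 12.0 and 17.8 CPM in the pulldowns and at 76.1 and 90.01 CPM in the total RNA of the 3-month female Hoxb7Cre controls. It reached at most 5.06 CPM in the other control pulldowns and 41.2 CPM in other total RNA. With mice of 5.5 months alone, the numbers of members called in the control comparisons below were the same, 5 and 2 against total RNA and 1 between the drivers.

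Pulldown and total RNA of control mice were compared to find which members were higher in tagged RNA than in whole kidney RNA. Pulldowns hold newly made RNA, whereas total RNA also holds older RNA, so cell type and RNA turnover are mixed in this comparison. The paper cautions that the labelling might reflect faster turnover of an RNA and might favour RNA rich in uracil. The part of turnover and of uracil content in the differences below was not tested. A gene was called when its adjusted p was under 0.05 (edgeR's quasi-likelihood test, Benjamini-Hochberg over all tested genes) and its log2 fold change was at least 1 in size. In Hoxb7Cre 5 of 9 members were called, where 32.5% of all tested genes were. In Atp6v1b1Cre 2 of 9 were called, where the share of all genes was 27.7%. Both receptor genes were higher in the pulldowns and 2 ligand genes were lower. The median over all tested genes was 0.107 in each comparison.

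The type I receptor gene *Tgfbr1* (chr4:47353222-47414931) ran from 333 to 612 CPM (median 432) in 10 Hoxb7Cre pulldowns, from 395 to 625 (median 486) in 11 Atp6v1b1Cre pulldowns and from 131 to 229 (median 175) in 21 libraries of total RNA. No pulldown overlapped with total RNA. The log2 fold changes were 1.43 (SE 0.08, adjusted p = 4.74e-20) and 1.54 (SE 0.08, adjusted p = 1.18e-21). The type II receptor gene *Tgfbr2* (chr9:116084293-116175360) ran from 174 to 293 CPM (median 193) in Hoxb7Cre, from 123 to 169 (median 154) in Atp6v1b1Cre and from 84.1 to 146 (median 104.2) in total RNA. Hoxb7Cre pulldowns lay above every other library, at a log2 fold change of 1.03 (SE 0.05, adjusted p = 1.56e-22) against total RNA. Atp6v1b1Cre pulldowns were 0.39 (SE 0.05, adjusted p = 3.40e-09) above total RNA, under the fold threshold, and 0.64 below Hoxb7Cre (SE 0.06, adjusted p = 9.54e-11) on the log2 scale. This is the receptor gene by which the drivers differed, whereas for *Tgfbr1* the difference was 0.11 (SE 0.10, adjusted p = 0.601). *Smad7*, which encodes the inhibitor, had log2 fold changes of 0.69 in Hoxb7Cre (SE 0.12, adjusted p = 2.67e-06) and 0.47 in Atp6v1b1Cre (SE 0.12, adjusted p = 4.93e-04), also under the fold threshold.

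The ligand gene *Tgfb1* (chr7:25687002-25705077) was lower in the pulldowns. It ran from 3.89 to 6.28 CPM (median 4.81) in Hoxb7Cre, from 5.46 to 9.30 (median 6.87) in Atp6v1b1Cre and from 8.97 to 17.4 (median 13.9) in total RNA. Hoxb7Cre did not overlap with total RNA, at a log2 fold change of -1.46 (SE 0.10, adjusted p = 5.04e-17), and Atp6v1b1Cre overlapped at the edge, at -0.90 (SE 0.10, adjusted p = 2.62e-11). *Inhbb* (chr1:119415465-119422248), the activin βB subunit, ran from 1.83 to 5.44 CPM (median 4.15) in Hoxb7Cre, from 1.09 to 6.26 (median 2.54) in Atp6v1b1Cre and from 3.33 to 26.7 (median 7.94) in total RNA. The pools overlapped, and the log2 fold changes were -1.28 (SE 0.28, adjusted p = 6.88e-05) and -1.56 (SE 0.27, adjusted p = 1.48e-06). In females alone the Hoxb7Cre value was -0.84 (adjusted p = 0.0171), under the fold threshold. Markers of other cells moved the same way: 4 of 7 endothelial markers and 3 of 6 of fibroblasts and pericytes were called lower in each pulldown than in total RNA, and 0 were called higher. Their part in the levels of *Tgfb1* and *Inhbb* was not tested. *Tgfb3* and *Inhba* did not pass the test against total RNA in either driver.

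*Gdf15* (chr8:70629393-70632456), a stress-induced ligand that signals through a receptor in the brainstem, separated the drivers. It ran from 23.2 to 164 CPM (median 88.0) in Hoxb7Cre, from 6.90 to 83.8 (median 16.3) in Atp6v1b1Cre and from 20.1 to 65.2 (median 38.4) in total RNA. The pools overlapped, and the spread between libraries was wide, with a coefficient of variation of 55.8% in Hoxb7Cre and 92.9% in Atp6v1b1Cre. Hoxb7Cre was above total RNA by 1.19 (SE 0.28, adjusted p = 2.09e-04) and Atp6v1b1Cre was 1.82 below Hoxb7Cre (SE 0.34, adjusted p = 1.30e-04) on the log2 scale, the only member called between the drivers, where 4.11% of all genes were. Neither call held among males alone, where *Gdf15* was at 0.68 (adjusted p = 0.143) and -1.11 (adjusted p = 0.104). *Tgfb1* was 0.56 higher in Atp6v1b1Cre than in Hoxb7Cre (SE 0.11, adjusted p = 3.08e-04) on that scale. Macrophage markers were also higher there, 5 of 8 of them called, with summed levels of 112 to 174 CPM in Atp6v1b1Cre controls and 40.9 to 93.4 in Hoxb7Cre controls. Some markers of other cells were called higher there too, namely *Ptprc* (1.35) and *Cd3e* (2.26) of white blood cells. So were *Pdgfra* (1.21) and *Pdgfrb* (1.14) of fibroblasts and pericytes, whereas *Lum* (0.28) of that list and the endothelial *Pecam1* (0.13) were not. The part of these cell types in the difference of *Tgfb1* was not tested. As a check of the labels, the summed level of 8 principal cell markers was 1146 to 3646 CPM in Hoxb7Cre controls, 572 to 1063 in Atp6v1b1Cre controls and 827 to 1453 in total RNA. That of 8 intercalated cell markers was 570 to 1326, 698 to 1671 and 429 to 734 CPM. In bulk RNA, fewer cells of a type and less RNA in each cell cannot be told apart.

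**Figure D1:**
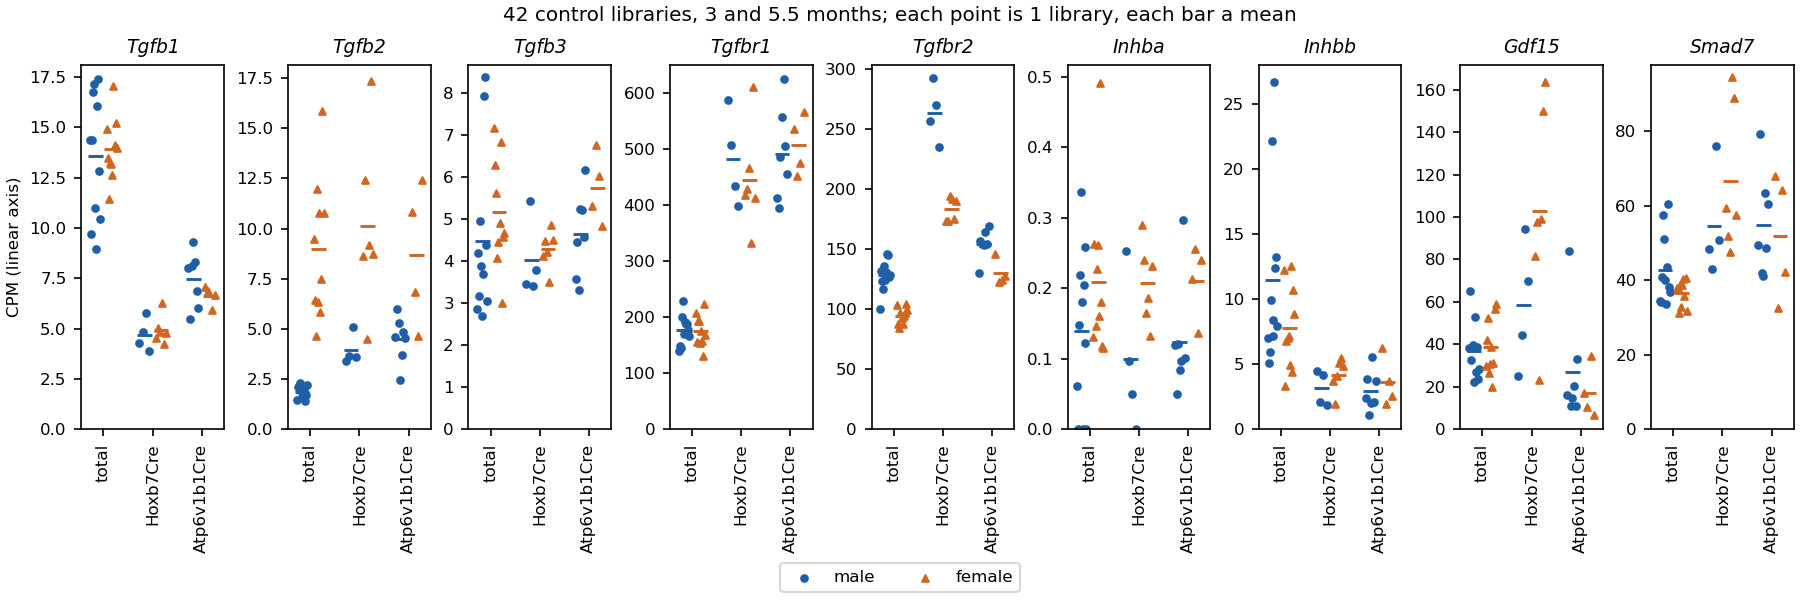
CPM (linear axis) of each member in the 42 control libraries of 3 and 5.5 months, by pool (Hoxb7Cre pulldown, Atp6v1b1Cre pulldown, total RNA) and sex; each point is 1 library and each bar a mean. *Tgfbr1* sits between 333 and 625 CPM in the pulldowns and between 131 and 229 in total RNA, and *Tgfb2* in total RNA of 5.5-month mice is at 4.65 CPM or more in females and 2.33 or less in males.

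Injury was examined in 22 male pulldowns of 5.5 months, in 1 fit of 6 groups. After iAKI 0 of 9 members were called in Hoxb7Cre, where 2.30% of all genes were (3 members had an unadjusted p under 0.05, and DESeq2 also called 0). In Atp6v1b1Cre 0 were called, where 2.82% of all genes were (0 at an unadjusted p under 0.05, 0 by DESeq2). After vAKI 2 members, *Inhbb* and *Smad7*, were called in each driver, all of them up, where 16.4% of all genes were called in Hoxb7Cre and 5.15% in Atp6v1b1Cre. Each of these contrasts is read against the same controls of its driver.

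*Inhbb* rose most. In male Hoxb7Cre pulldowns it was at 4.51, 2.08, 4.20 and 1.83 CPM in controls, 5.74, 8.43, 5.28 and 5.50 CPM after iAKI and 34.4, 54.4 and 66.5 CPM after vAKI. Every vAKI library lay above every control and every iAKI library. The mean was 16.4 times the control mean after vAKI, at a log2 fold change of 4.04 (SE 0.41, adjusted p = 2.83e-07). Over 18 alternatives the value ran from 2.83 to 4.26 and all passed the test. After iAKI the libraries also lay above every control, but the log2 fold change of 0.99 (SE 0.38, adjusted p = 0.121) missed the test. Compared directly, vAKI exceeded iAKI by 3.04 (SE 0.39, adjusted p = 4.27e-06).

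In male Atp6v1b1Cre pulldowns *Inhbb* was at 2.01, 5.52, 2.12 and 3.68 CPM in controls, 3.08, 2.17 and 7.55 CPM after iAKI and 9.76, 12.6, 6.52 and 8.10 CPM after vAKI. The vAKI libraries lay above every control, whereas those after iAKI overlapped with both. The log2 fold change was 1.50 (SE 0.37, adjusted p = 0.00921) after vAKI and 0.36 (SE 0.40, adjusted p = 0.634) after iAKI. Against iAKI the vAKI value was 1.14 (SE 0.40, adjusted p = 0.0348), a call lost without iAKI replicates 1 or 4 (0.93, adjusted p = 0.158, and 0.82, adjusted p = 0.179) or vAKI replicates 1 or 2 (1.12, adjusted p = 0.0501, and 0.95, adjusted p = 0.101). The response of *Inhbb* to vAKI was smaller in Atp6v1b1Cre than in Hoxb7Cre by 2.54 on the log2 scale (SE 0.54, adjusted p = 0.00879). It was the only member whose response to vAKI differed between the drivers, where 4.20% of all genes did. With both sexes in the fit, the difference was -1.03 (adjusted p = 0.529).

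**Figure D2:**
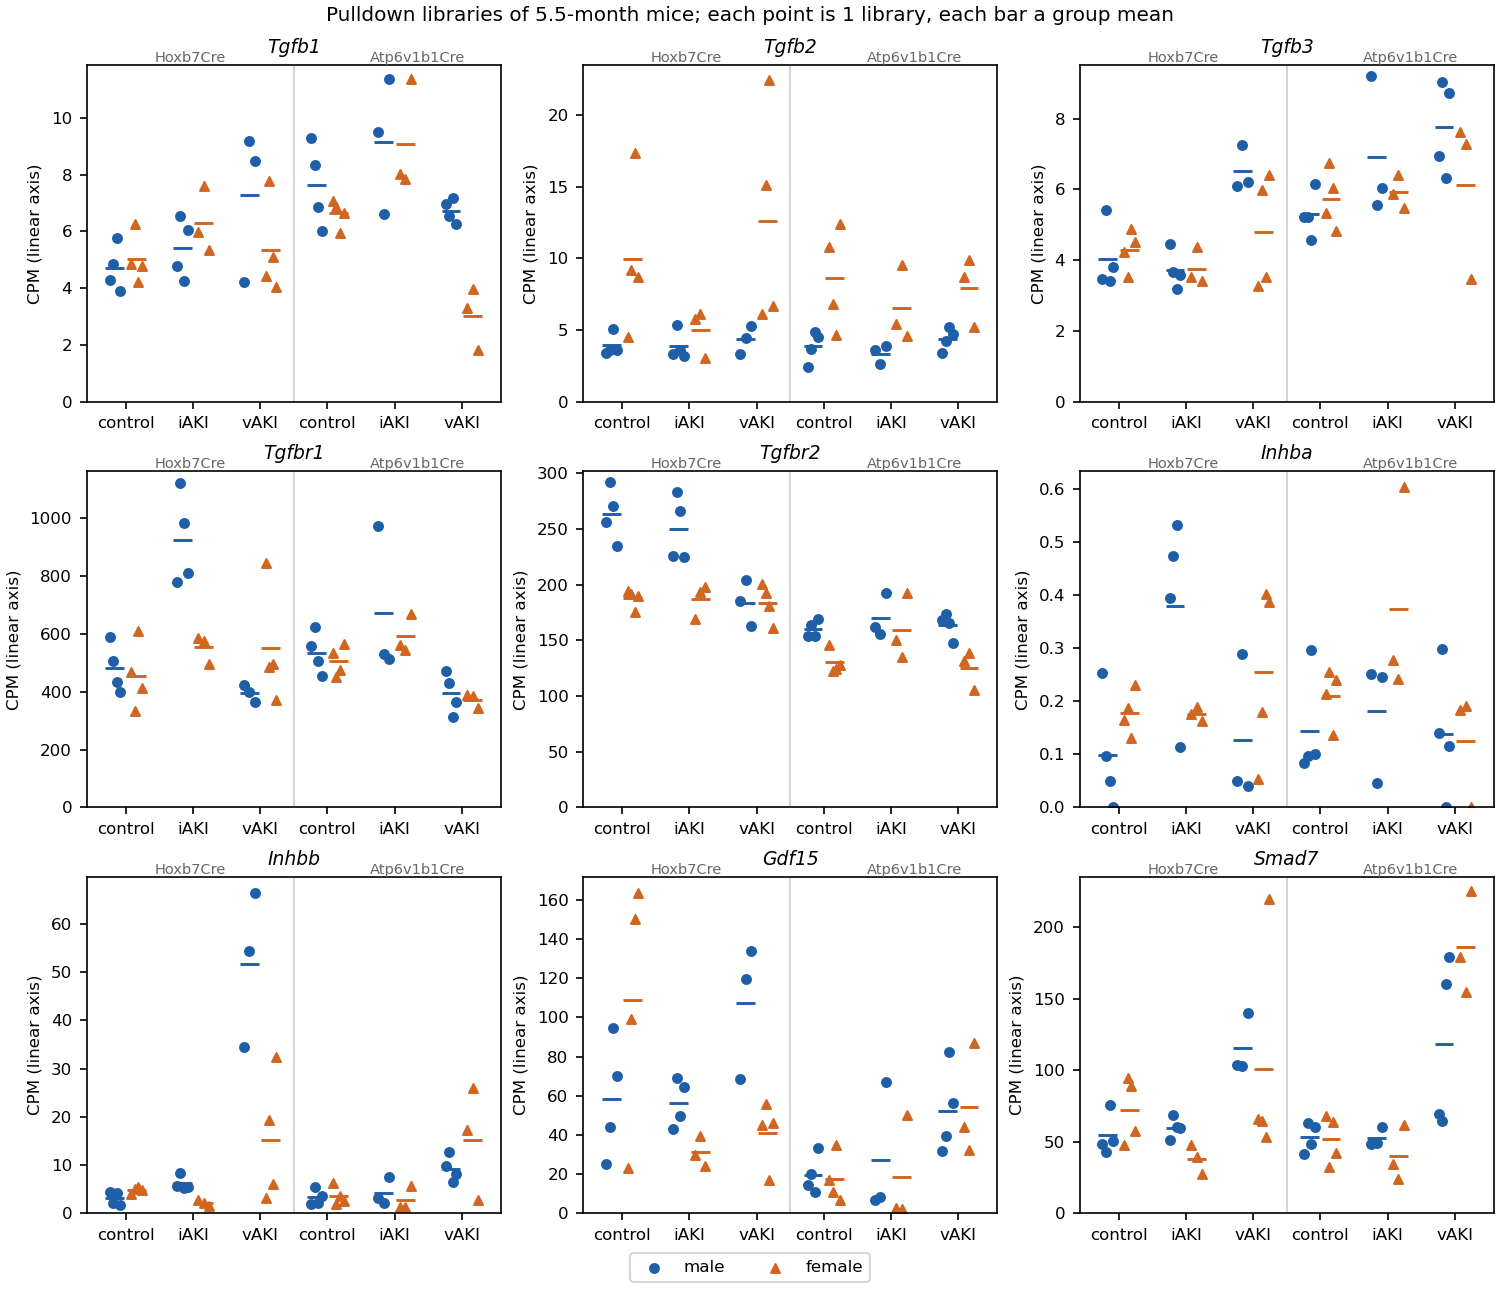
CPM (linear axis) of each member in the pulldowns of 5.5-month mice, by driver, treatment and sex; each point is 1 library and each bar a group mean. In male Hoxb7Cre mice *Inhbb* lies between 34.4 and 66.5 CPM after vAKI and at 8.43 or less in the other male groups of that driver, and *Tgfbr1* lies between 778 and 1123 CPM after iAKI and at 588 or less in controls.

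Because *Inhbb* was higher in total RNA than in the pulldowns, it was set beside 7 endothelial markers (*Pecam1*, *Cdh5*, *Kdr*, *Flt1*, *Emcn*, *Egfl7* and *Tie1*), a measure chosen after its values were seen. In male Hoxb7Cre pulldowns their summed level was 119 to 234 CPM in controls and 282 to 396 CPM after vAKI, and 3 of the 7 were called up. *Inhbb* per 100 CPM of these markers was 0.960 to 2.72 in controls and 12.2 to 19.2 after vAKI. In male Atp6v1b1Cre pulldowns the sum was 214 to 272 CPM in controls and 187 to 301 after vAKI, with 0 of 7 called by edgeR, and *Inhbb* per 100 CPM was 0.900 to 2.03 and 3.48 to 4.76. In total RNA the ratio ran from 0.605 to 4.66. The 3 genes most like *Inhbb* across the 22 male pulldowns, of 15125 searched, were *Thbd* (Pearson's r = 0.948), *Btbd19* (r = 0.942) and *Flt4* (r = 0.931). *Thbd* (thrombomodulin) and *Flt4* (VEGF receptor 3) are best known from endothelial cells. Principal cell markers fell over the same comparison, 6 of 8 of them in Hoxb7Cre after vAKI, with a summed level of 1174 to 1261 CPM against 2802 to 3646 in controls. The part of endothelial or principal cell RNA in the rise of *Inhbb* was not tested.

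**Figure D3:**
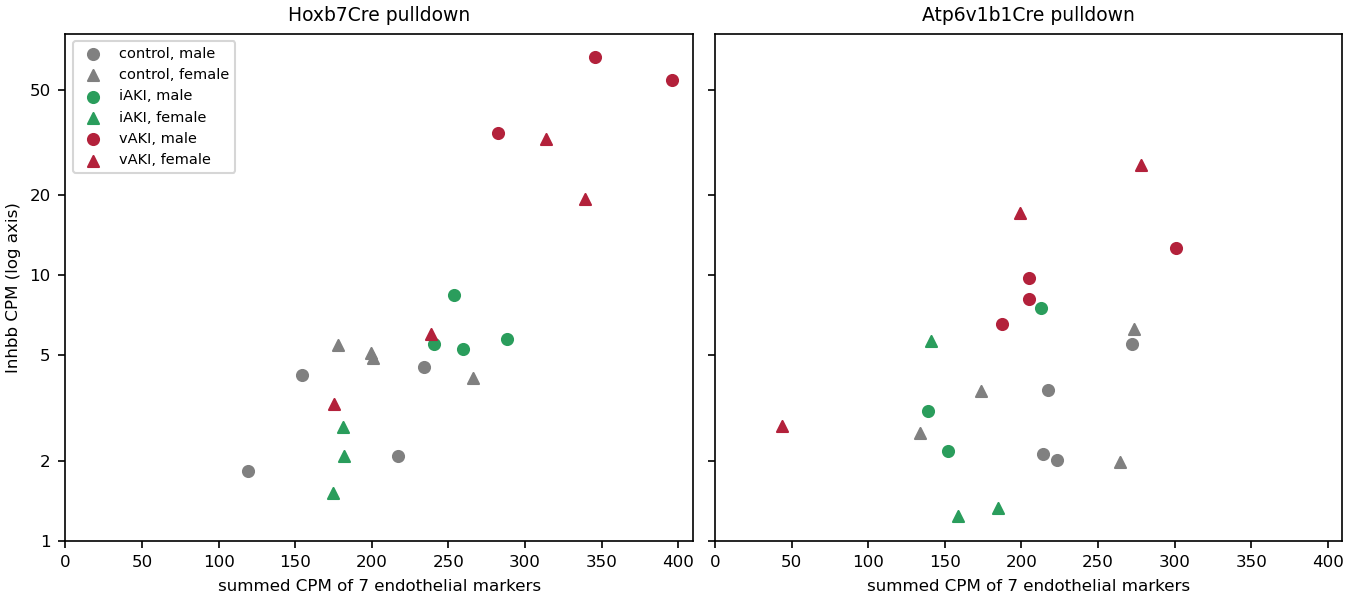
*Inhbb* CPM (log axis) against the summed CPM of 7 endothelial markers (linear axis), 1 point for each pulldown of a 5.5-month mouse, with 1 panel for each driver; colour and shape give treatment and sex. The male Hoxb7Cre vAKI libraries sit at 34.4 to 66.5 CPM of *Inhbb*, at marker sums of 282 to 396 CPM.

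*Smad7*, the feedback inhibitor of the pathway, also rose after vAKI. In male Hoxb7Cre pulldowns it was at 48.3, 43.01, 76.1 and 50.7 CPM in controls, 51.3, 68.9, 60.1 and 59.8 CPM after iAKI and 103.8, 103.4 and 140.02 CPM after vAKI. The vAKI libraries lay above all others, at a log2 fold change of 1.09 (SE 0.27, adjusted p = 0.00326), while iAKI was at 0.15 (SE 0.26, adjusted p = 0.814). With both sexes in the fit the vAKI value was 0.76 (adjusted p = 0.0524). It fell under the fold threshold without control replicate 3 (0.99, adjusted p = 0.0142) or vAKI replicate 7 (0.93, adjusted p = 0.0257). Compared directly, vAKI exceeded iAKI by 0.94 (SE 0.27, adjusted p = 0.0103), also under the fold threshold, and by 0.78 (adjusted p = 0.0664) without vAKI replicate 7.

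In male Atp6v1b1Cre pulldowns *Smad7* was at 41.2, 63.5, 48.8 and 60.5 CPM in controls and 48.5, 48.9 and 60.7 CPM after iAKI. After vAKI it was at 69.4 and 64.9 CPM in the libraries of series A and at 161 and 179 CPM in those of series B. All 4 vAKI libraries lay above the controls, those of series A only just. The log2 fold change over both series was 1.16 (SE 0.26, adjusted p = 0.00462), and 1.04 (adjusted p = 6.50e-04) with the series as a covariate, but 0.36 (adjusted p = 0.264) in series A alone. Without vAKI replicates 6 or 7, the libraries of series B, it was 0.98 (adjusted p = 0.0247) and 0.88 (adjusted p = 0.0302), under the fold threshold. Against iAKI it was 1.19 (SE 0.28, adjusted p = 0.00305) in all libraries and 0.47 (adjusted p = 0.0598) in series A alone. The drivers did not differ in this response by the test, at 0.07 (SE 0.38, adjusted p = 1.00). *Siah1a* (Pearson's r = 0.959), *Id1* (0.955) and *Ier5* (0.947) were the genes most like *Smad7* over the 22 libraries, which share the split between series. *Id1*, a target of the BMP branch, was at 1.99 (SE 0.47, adjusted p = 0.00653) after vAKI in Atp6v1b1Cre and at 0.19 (adjusted p = 0.761) in series A alone.

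The receptor genes moved in different comparisons. *Tgfbr1* was at 588, 508, 434 and 398 CPM in male Hoxb7Cre controls, 778, 1123, 986 and 811 CPM after iAKI and 423, 398 and 364 CPM after vAKI. Every iAKI library lay above every control, whereas vAKI overlapped with controls. The iAKI value was 0.95 (SE 0.19, adjusted p = 0.00461), a mean 1.92 times that of controls and just under the fold threshold. It passed the adjusted p in 19 of 19 alternatives, with values from 0.68 to 1.14, and reached the fold threshold without iAKI replicates 4 or 7 or control replicate 2. After vAKI the log2 fold change was -0.28 (SE 0.20, adjusted p = 0.307), and vAKI against iAKI was at -1.23 (SE 0.21, adjusted p = 8.77e-05). With both sexes in the fit the latter was -0.62 (adjusted p = 0.00715), and with all 69 libraries -0.64 (adjusted p = 9.90e-04), both under the fold threshold. With *Inhbb* it was 1 of the 2 members called between the stimuli in Hoxb7Cre, where 14.7% of all genes were. In female Hoxb7Cre mice *Tgfbr1* averaged 554 CPM after iAKI and 456 CPM in controls, and these libraries overlapped.

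In male Atp6v1b1Cre mice *Tgfbr1* was at 557, 625, 506 and 455 CPM in controls, 973, 529 and 513 CPM after iAKI and 471, 430, 315 and 366 CPM after vAKI. One iAKI library, replicate 1, stood at 973 CPM and the others lay among the controls. The log2 fold change was 0.32 (SE 0.20, adjusted p = 0.352) after iAKI and -0.42 (SE 0.19, adjusted p = 0.134) after vAKI. The difference between the stimuli was -0.74 (SE 0.20, adjusted p = 0.00708), and -0.40 (adjusted p = 0.138) without iAKI replicate 1. Called between the stimuli in this driver were *Inhbb* and *Smad7*, 2 of 9 members, where 11.6% of all genes were. Between the drivers the response of *Tgfbr1* to iAKI differed by -0.64 (SE 0.27, adjusted p = 0.155), and by -0.96 (adjusted p = 0.0384) without that library. No member's response to iAKI was called as different between the drivers, where 7.79% of all genes were (edgeR, 1 member at an unadjusted p under 0.05, 0 by DESeq2).

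*Tgfbr2* was at 257, 293, 270 and 235 CPM in male Hoxb7Cre controls, 226, 283, 266 and 225 CPM after iAKI and 185, 204 and 163 CPM after vAKI. The vAKI libraries lay below all others. The log2 fold change was -0.51 (SE 0.12, adjusted p = 0.00195) after vAKI and -0.06 (SE 0.11, adjusted p = 0.820) after iAKI, and vAKI was below iAKI by 0.45 (SE 0.12, adjusted p = 0.00583). The vAKI value was -0.25 (adjusted p = 0.0637) with both sexes in the fit. In Atp6v1b1Cre *Tgfbr2* was at 0.05 (SE 0.11, adjusted p = 0.842) after vAKI, and the difference between the drivers was 0.56 (SE 0.16, adjusted p = 0.0532). As given above, *Tgfbr2* was higher in Hoxb7Cre than in Atp6v1b1Cre controls, and principal cell markers were lower after vAKI in Hoxb7Cre. Their part was not tested.

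Among the TGF-β ligand genes of male Hoxb7Cre mice, *Tgfb3* (chr12:86056745-86079041) was at 3.46, 5.43, 3.41 and 3.80 CPM in controls and 6.09, 7.27 and 6.21 CPM after vAKI, with no overlap. Its log2 fold change was 0.71 (SE 0.21, adjusted p = 0.0107), and 0.62 (adjusted p = 0.0540) without vAKI replicate 6. *Tgfb1* was at 4.30, 4.84, 5.78 and 3.89 CPM in controls and 4.23, 9.19 and 8.47 CPM after vAKI. One of these 3 libraries lay among the controls, and the log2 fold change of 0.64 (SE 0.24, adjusted p = 0.0395) was lost without vAKI replicate 6 (0.45, adjusted p = 0.229), vAKI replicate 7 (0.53, adjusted p = 0.161) or control replicates 2, 3 or 5 (0.57 to 0.66, adjusted p from 0.0646 to 0.0998). Both values were under the fold threshold. In male Atp6v1b1Cre mice after vAKI *Tgfb3* was at 0.57 (SE 0.19, adjusted p = 0.0508) and *Tgfb1* at -0.16 (SE 0.22, adjusted p = 0.686). *Tgfb2* (chr1:186622792-186705989) missed the test in each of the 4 injury comparisons, with log2 fold changes from -0.22 to 0.19.

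*Gdf15* was at 14.5, 20.3, 11.1 and 33.2 CPM in male Atp6v1b1Cre controls, 6.67, 8.42 and 66.98 CPM after iAKI and 31.9, 39.4, 82.4 and 56.2 CPM after vAKI. The vAKI libraries lay at or above the highest control, save 1 just under it. The log2 fold change of 1.41 (SE 0.54, adjusted p = 0.0814) missed the test and passed it in 8 of 19 alternatives, with values from 0.97 to 2.52 (adjusted p from 0.0165 to 0.244). In male Hoxb7Cre it was at 25.1, 44.2, 94.4 and 70.01 CPM in controls and 68.7, 120 and 134 CPM after vAKI, at a log2 fold change of 0.88 (SE 0.56, adjusted p = 0.242). *Inhba* (chr13:16011851-16031621), the activin βA subunit, was at 0.253, 0.0969, 0.0494 and 0 CPM in male Hoxb7Cre controls and 0.396, 0.473, 0.533 and 0.115 CPM after iAKI. These levels overlapped, and the log2 fold change of 1.82 (SE 0.77, adjusted p = 0.171) missed the test. The other 3 injury values of *Inhba* ran from 0.12 to 0.37.

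**Figure D4:**
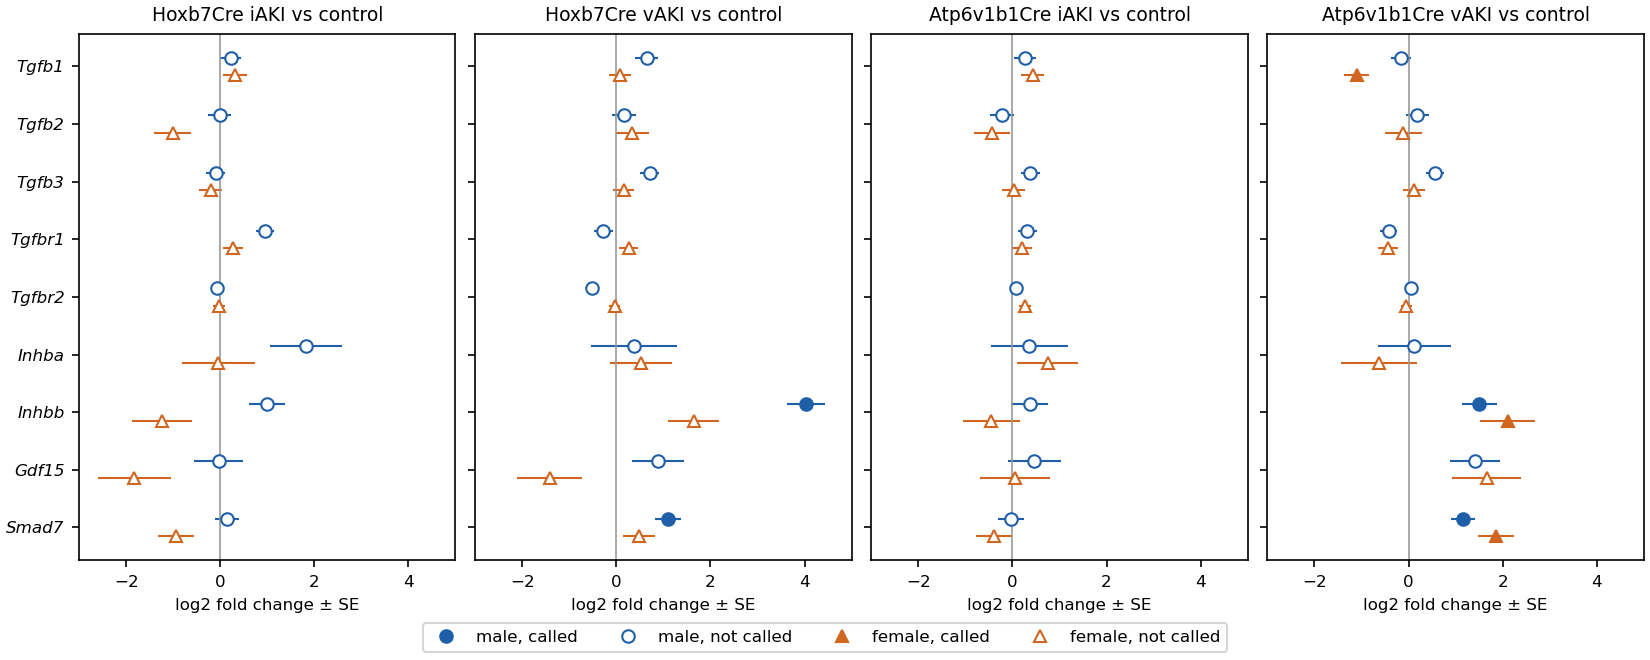
Log2 fold change ± SE of each member after iAKI or vAKI against controls of the same driver and sex; circles are males, triangles are females, and filled symbols were called (adjusted p under 0.05 and at least 1 in size). *Inhbb* lies at 4.04 in Hoxb7Cre males and at 1.50 in Atp6v1b1Cre males after vAKI, and the symbols after iAKI are open.

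Females were examined in the 43 pulldowns of 5.5 months. After iAKI 0 of 9 members were called in Hoxb7Cre, where 5.70% of all genes were (edgeR, 3 members at an unadjusted p under 0.05, 0 by DESeq2), and 0 in Atp6v1b1Cre, where 2.59% were (1 member at an unadjusted p under 0.05, 0 by DESeq2). Without control replicate 1, however, 3 were called down in Hoxb7Cre: *Tgfb2* (-1.26, adjusted p = 0.0209), *Gdf15* (-2.16, adjusted p = 0.0404) and *Smad7* (-1.09, adjusted p = 0.0456). That library is the only series A control among these females, whereas their iAKI libraries are all of series A. Injury and series therefore cannot be told apart in that fit. After vAKI 0 were called in Hoxb7Cre, where only 0.194% of all genes were (2 members at an unadjusted p under 0.05, 0 by DESeq2). In Atp6v1b1Cre 3 were called after vAKI, *Inhbb* and *Smad7* up and *Tgfb1* down, where 11.8% of all genes were.

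In female Atp6v1b1Cre mice *Smad7* was at 67.98, 32.5, 64.2 and 42.3 CPM in controls and 179, 155 and 225 CPM after vAKI. There was no overlap, and the log2 fold change of 1.86 (SE 0.37, adjusted p = 4.86e-04) passed in 14 of 14 alternatives. *Inhbb* was at 6.26, 1.97, 3.67 and 2.54 CPM in controls and 17.2, 25.9 and 2.70 CPM after vAKI. Of these, replicate 5, at 2.70 CPM, lay among the controls, and the log2 fold change was 2.10 (SE 0.58, adjusted p = 0.00734). Without vAKI replicate 4 it was 1.48 (adjusted p = 0.0898). The endothelial markers of replicate 5 summed to 43.5 CPM, against 199 and 278 CPM in vAKI replicates 3 and 4. *Inhbb* per 100 CPM of them was 6.21 to 9.33 in the 3 vAKI libraries and 0.746 to 2.29 in controls. This ratio was chosen after the values were seen, and the part of endothelial RNA was not tested. *Tgfb1* was at 7.07, 6.87, 5.94 and 6.66 CPM in controls and 3.30, 3.98 and 1.802 CPM after vAKI. These did not overlap, and the log2 fold change was -1.10 (SE 0.26, adjusted p = 0.00231), or -0.85 (adjusted p = 0.0285), under the fold threshold, without vAKI replicate 5. In males of this driver the value was -0.16, as above, and the difference between the sexes was -0.93 (SE 0.35, adjusted p = 0.511). The test of that difference called 0 of 21175 genes in Atp6v1b1Cre after either stimulus (0%), with 676 genes at an unadjusted p under 0.05 after iAKI and 1756 after vAKI, and 1 and 44 genes by DESeq2. None of the 9 members was called by either tool.

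In female Hoxb7Cre mice *Inhbb* was at 4.11, 5.08, 5.44 and 4.86 CPM in controls and 3.26, 19.4, 5.99 and 32.4 CPM after vAKI. The vAKI libraries were split, 2 of them far above the controls and 2 near them. The log2 fold change was 1.64 (SE 0.54, adjusted p = 0.214). It was 2.39 lower than in males on the log2 scale (SE 0.79, adjusted p = 0.0353), the only member called in this test, where 16.0% of all genes were. The call was lost without any 1 of 9 libraries, namely female vAKI replicates 1 or 3, female control replicates 6, 9 or 10, male control replicates 3 or 5, or male vAKI replicates 6 or 7 (adjusted p from 0.0514 to 0.0871). The injury marker *Havcr1* also differed in this test (5.26, SE 1.43, adjusted p = 0.0131). After vAKI it was at 3.83 to 26.2 CPM in females and 0.822 to 1.05 CPM in males. The injury marker *Lcn2* was not called (1.00, adjusted p = 0.535). The part of injury state in the difference of *Inhbb* was not tested. After iAKI *Inhbb* was at 2.69, 2.09 and 1.51 CPM in females, below all 4 controls, while in males it lay above them. The female value was -1.23 (SE 0.64, adjusted p = 0.198), and the difference between the sexes was -2.22 (SE 0.85, adjusted p = 0.0826), or -2.20 (adjusted p = 0.0376) by DESeq2. No member was called for iAKI in this test by edgeR, where 10.5% of all genes were (3 members at an unadjusted p under 0.05). *Smad7* was at 47.7, 94.6, 88.8 and 57.4 CPM in female controls and 65.9, 64.3, 53.4 and 220.1 CPM after vAKI. Replicate 5 stood at 220.1 CPM, and the log2 fold change was 0.48 (SE 0.35, adjusted p = 0.669), or -0.25 (adjusted p = 0.735) without it.

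Sex itself was compared among controls of 5.5 months, a test added after the values were seen. In total RNA *Tgfb2* ran from 4.65 to 15.9 CPM (median 8.47) in 8 females and from 1.42 to 2.33 CPM (median 1.81) in 8 males. No female overlapped with a male, and the log2 fold change of females against males was 2.31 (SE 0.22, adjusted p = 2.21e-07). In the pulldowns it ran from 4.52 to 17.3 CPM (median 8.96) in 8 females and from 2.43 to 5.09 CPM (median 3.66) in 8 males, with overlap, at 1.25 (SE 0.25, adjusted p = 0.00548). *Tgfb2* was the only member called in either comparison, where 4.56% and 1.79% of all genes were. In the pulldowns against total RNA, the log2 fold change of *Tgfb2* was 0.59 (SE 0.19, adjusted p = 0.00683) in Hoxb7Cre and 0.74 (SE 0.20, adjusted p = 0.00105) in Atp6v1b1Cre over both sexes. It was 0.23 (adjusted p = 0.483) and -0.01 (adjusted p = 1.00) in females alone, and 1.10 (adjusted p = 1.08e-05) and 1.29 (adjusted p = 6.06e-08) in males alone, where both were past the fold threshold. *Tgfbr2* was lower in females, from 84.1 to 104.2 CPM (median 96.6) against 117 to 146 (median 130) in total RNA, with no overlap. Its log2 fold change was -0.43 (SE 0.06, adjusted p = 1.16e-05) in total RNA and -0.39 (SE 0.07, adjusted p = 0.00329) in the pulldowns, under the fold threshold.

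The other genes of the pathway were taken from 6 lists of 110 genes in all, of which 1 had too few counts to be tested. The lists were chosen with earlier results of these data known. The tested genes as a whole include genes of very low counts, so the shares below are a description and not a test. In male Hoxb7Cre pulldowns 14 were called after iAKI, 13 up and 1 down (12.8%, against 2.30% of all genes), with a median log2 fold change of 0.348 against 0 over all genes. After vAKI 31 were called, 26 up and 5 down (28.4%, against 16.4%), with a median of 0.541. With both sexes in the fit the counts were 7 and 8, and with all 69 libraries they were 8 and 8. In male Atp6v1b1Cre pulldowns 6 were called after iAKI, 5 up and 1 down (5.5%, against 2.82%), and 10 after vAKI, 9 up and 1 down (9.17%, against 5.15%).

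Target genes made up most of the rise. Of 28 targets 9 rose and 0 fell after iAKI in Hoxb7Cre. They were led by *Timp1*, an inhibitor of matrix proteases, at 3.35 (SE 0.61, adjusted p = 0.00279), and *Col1a1*, a chain of type I collagen, at 2.83 (SE 0.44, adjusted p = 8.91e-04). The others included *Col3a1*, *Col1a2*, *Tgfbi* and *Fn1*. With the series as covariate *Fn1* was at 0.95 (adjusted p = 0.00859), under the fold threshold, and in series A alone at 0.65 (adjusted p = 0.104). Markers of fibroblasts and pericytes, a list that holds matrix genes too, rose there as well, with 3 of 6 called and summed levels of 107.3 to 198 CPM against 55.5 to 101.8 in controls, and their part was not tested. After vAKI 14 of 28 targets rose and 0 fell, with *Junb*, an AP-1 subunit, at 3.61 (SE 0.51, adjusted p = 1.09e-05), and *Bhlhe40*, a transcriptional repressor, at 3.18 (SE 0.37, adjusted p = 1.44e-06). Among them were *Id1*, *Id2* and *Id3*, inhibitors of basic helix-loop-helix factors that answer to BMP, and *Cdkn1a*, the cell cycle inhibitor p21, at 2.90 (SE 0.32, adjusted p = 7.88e-07).

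In Atp6v1b1Cre 4 of 28 targets rose after iAKI, among them *Timp1* (2.93, SE 0.59, adjusted p = 0.00468), *Col1a1* (2.53, SE 0.44, adjusted p = 0.00160) and *Tgfbi*. The last missed the test without iAKI replicate 1 (adjusted p = 0.192), as did *Itgb8* (adjusted p = 0.0866), and only 3 pathway genes were then called. After vAKI 5 targets rose, with *Junb* at 2.40 (SE 0.47, adjusted p = 0.00186), and *Id1*, *Bhlhe40*, *Cdkn1a* and *Cdkn2b*. In series A alone *Bhlhe40* was at 0.42 (adjusted p = 0.283) and *Cdkn1a* at 0.78 (adjusted p = 0.165). *Cdkn2b* was under the fold threshold in series A alone (0.92, adjusted p = 0.0396), without vAKI replicate 7 (0.88, adjusted p = 0.0259) and with both sexes (0.72, adjusted p = 0.00438).

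Of the 23 genes of latency, activation and extracellular inhibition, *Lrrc32*, which encodes GARP, a cell surface anchor of latent TGF-β, was at 1.64 (SE 0.38, adjusted p = 0.0118) after iAKI and 4.15 (SE 0.42, adjusted p = 2.74e-07) after vAKI in Hoxb7Cre. In Atp6v1b1Cre it was at 2.08 (SE 0.37, adjusted p = 9.64e-04) after vAKI, less than in Hoxb7Cre by 2.07 (SE 0.53, adjusted p = 0.0266). *Fst*, the activin-binding protein follistatin, rose after iAKI in Hoxb7Cre (2.38, SE 0.52, adjusted p = 0.00886) and in Atp6v1b1Cre (1.95, SE 0.53, adjusted p = 0.0247), and after vAKI in Atp6v1b1Cre (1.84, SE 0.51, adjusted p = 0.0176). In Atp6v1b1Cre these calls were lost with single libraries left out, iAKI replicate 5 (1.03, adjusted p = 0.226) and vAKI replicate 7 (1.37, adjusted p = 0.0926) among them. *Bambi*, a decoy receptor, rose after vAKI in Hoxb7Cre, at 2.67 (SE 0.36, adjusted p = 5.73e-06). *Itgb8*, whose integrin activates latent TGF-β, fell in Atp6v1b1Cre after iAKI (-1.82, SE 0.42, adjusted p = 0.0111) and vAKI (-1.50, SE 0.38, adjusted p = 0.0104). *Itgb6*, of a like function, was up after iAKI (1.41, SE 0.31, adjusted p = 0.00939) and down after vAKI (-1.03, SE 0.34, adjusted p = 0.0207) in Hoxb7Cre. The vAKI value was under the fold threshold in series A alone (-0.83, adjusted p = 0.0277) and with the series as covariate (-0.81, adjusted p = 0.0465), and with both sexes it was -0.31 (adjusted p = 0.505). The iAKI value was 0.89 (adjusted p = 0.0133) with all 69 libraries.

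Of 14 receptor genes 1 was called after iAKI and 4 after vAKI in Hoxb7Cre, where 2.30% and 16.4% of all genes were, and 0 in Atp6v1b1Cre by edgeR after either stimulus. *Acvr1c*, the type I receptor ALK7, fell after iAKI (-1.85, SE 0.39, adjusted p = 0.00746) and vAKI (-1.39, SE 0.42, adjusted p = 0.0122), and *Bmpr1b*, a BMP receptor, fell after vAKI (-1.51, SE 0.21, adjusted p = 7.54e-06). *Eng* and *Acvrl1*, receptors best known from endothelium, rose after vAKI by 1.28 (SE 0.18, adjusted p = 9.50e-06) and 1.15 (SE 0.23, adjusted p = 4.21e-04), beside the endothelial markers given above, whose part was not tested. With all 69 libraries *Bmpr1b* was at -0.57 (adjusted p = 0.0177), *Eng* at 0.74 (adjusted p = 0.00160) and *Acvrl1* at 0.55 (adjusted p = 0.0238), under the fold threshold. *Acvrl1* was also under it in series A alone (0.97, adjusted p = 0.00301) and without vAKI replicate 6 (0.90, adjusted p = 0.00765). Of 18 Smads and their regulators 4 were called after vAKI in Hoxb7Cre, *Smad1* (1.99, SE 0.28, adjusted p = 9.84e-06), *Skil* (1.28, SE 0.16, adjusted p = 2.78e-06) and *Tgif1* up and *Zfyve9*, the receptor adaptor SARA, down (-1.04, SE 0.19, adjusted p = 2.09e-04). *Zfyve9* was just under the fold threshold without control replicates 2 (-0.99) or 3 (-0.96), and with both sexes it was -0.42 (adjusted p = 0.177). With both sexes *Smad1* was at 0.92 (adjusted p = 0.0383) and *Skil* at 0.80 (adjusted p = 0.00699), under that threshold too, and *Tgif1* was at 0.31 (adjusted p = 0.571). Of 11 other ligands of the branch and 15 BMP ligands that were tested, *Lefty1* (1.60, SE 0.44, adjusted p = 0.00615) and *Bmp2* (1.28, SE 0.26, adjusted p = 6.25e-04) rose and *Gdf11* (-1.50, SE 0.42, adjusted p = 0.00711) fell after vAKI in Hoxb7Cre, and *Bmp3* rose after vAKI in Atp6v1b1Cre (1.13, SE 0.29, adjusted p = 0.0128).

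**Figure D5:**
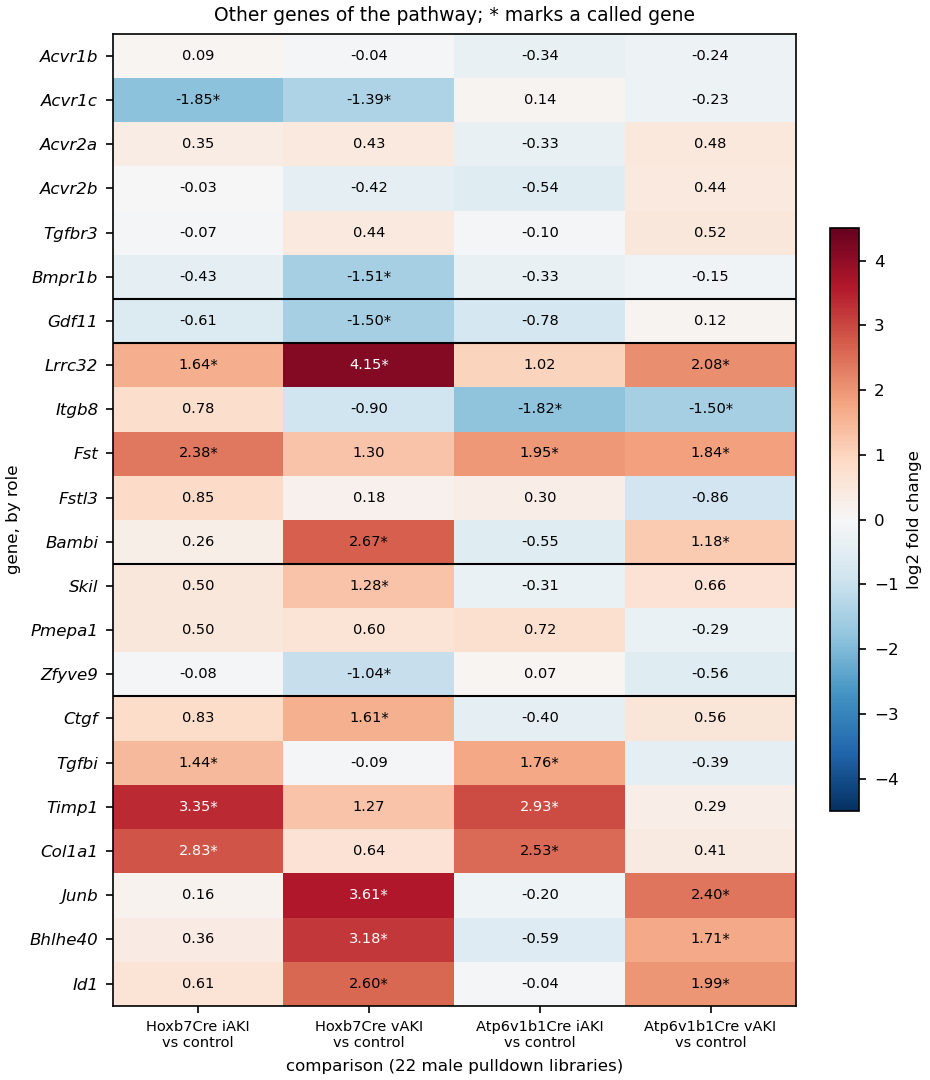
Log2 fold changes (colour scale and printed value) of 22 other pathway genes, in rows by role, in the 4 male injury comparisons, in columns; a star marks a called gene. *Lrrc32* is at 4.15 and *Junb* at 3.61 in Hoxb7Cre after vAKI, and fewer stars stand in the Atp6v1b1Cre columns.

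In control mice 45 of these genes were called between Hoxb7Cre pulldowns and total RNA, 19 higher and 26 lower (41.3%, against 32.5% of all genes), and 33 in Atp6v1b1Cre, 16 higher and 17 lower (30.3%, against 27.7%). Of 28 targets 14 were called lower in Hoxb7Cre and 9 in Atp6v1b1Cre, and 1 was called higher in each. The matrix proteoglycans *Bgn* (-3.93, SE 0.16, adjusted p = 4.83e-26) and *Dcn* (-3.45, SE 0.18, adjusted p = 9.45e-22) were far lower in Hoxb7Cre pulldowns than in total RNA. The limits on such comparisons are given above. Of the Smads and their regulators 6 and 5 of 18 were called higher and 0 lower. Of 14 receptor genes 4 were called higher and 2 lower in Hoxb7Cre, and 5 higher and 1 lower in Atp6v1b1Cre. *Bmpr1b* was at 2.69 (SE 0.13, adjusted p = 3.79e-23) and 2.06 (SE 0.13, adjusted p = 4.38e-19), and *Acvr1c* at 2.16 (SE 0.16, adjusted p = 1.48e-16) and 2.13 (SE 0.16, adjusted p = 1.62e-16). Between the drivers 10 pathway genes were called (9.17%, against 4.11%). *Tgfbi* was higher in Atp6v1b1Cre by 1.61 (SE 0.15, adjusted p = 9.54e-11) and *Bmp3* was lower by 1.46 (SE 0.14, adjusted p = 2.38e-10) on the log2 scale.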

How the data were processed

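Total RNA and 4-TU tagged RNA of kidney were prepared with the Illumina TruSeq kit and sequenced. The deposited values are raw read counts per gene, which the authors made by base calling with RTA, adaptor removal with CASAVA 1.8.2, trimming with Trimmomatic 0.36, alignment to mm10 with STAR 2.5.3a and counting with HTSeq 0.6.1p2, both at default settings. HTSeq then leaves out reads that align to several places. Which annotation the symbols come from was not given in the sources used here. Gene positions, exon lengths and overlaps are those of GENCODE for GRCm38.

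Tests covered the 21175 of 24411 genes whose counts summed to 2 or more over all 69 libraries, in R 4.3.3 with edgeR 4.0.16 (TMM, quasi-likelihood test, Benjamini-Hochberg adjustment over all tested genes), with DESeq2 1.42.0 as an alternative. Calls needed an adjusted p under 0.05 together with a change of 1 or more on the log2 scale. A difference between 2 responses needed only the adjusted p. Injury was tested in 22 males of 5.5 months, pools in 42 controls with sex as a covariate, and sexes in 43 pulldowns. Sex among controls was tested after the data were seen, in 16 libraries of total RNA and 16 pulldowns with driver as a covariate. Where groups had more than 5 libraries, the lowest, the median and the highest are given.

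The members, gene lists and tests were chosen with earlier results of these data known. Pathway genes named are the called genes of highest and lowest fold change in each comparison, and further called genes whose choice was made after their values were seen. Some genes of the lists are counted but not reported here by name. Genes like a member were the 3 of highest Pearson correlation among 15125 genes. Library totals ran from 12618062 to 30305464 counts, and a group at 3 counts or fewer was taken as at the floor. The fits were tested on simulated counts. Alternatives were DESeq2, its size factors, other filters, other sets of libraries, covariates, the replicate number as a block, no fold threshold and each library left out in turn.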

Additional observations from a re-analysis of the deposited data

Results flagged for a closer look

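In 5 of 99 groups of 4 to 10 libraries the highest or lowest value lay far from the others by Dixon's test, where chance gives about 1 in 20. *Tgfb2* was at 5.09 CPM in male Hoxb7Cre control replicate 4, where the next value was 3.63. *Inhba* was at 0.297 CPM in male Atp6v1b1Cre control replicate 10, where the next was 0.100. *Inhbb* was at 8.43 CPM in male Hoxb7Cre iAKI replicate 5, where the next was 5.74. *Smad7* was at 220.1 CPM in female Hoxb7Cre vAKI replicate 5, where the next was 65.9, and at 31.3 CPM in the total RNA of female Atp6v1b1Cre control replicate 13, the lowest of its group, where the next was 38.02.

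The response of *Inhbb* to vAKI differed between groups in 2 tests, which share the male Hoxb7Cre libraries. Its log2 fold change was -2.54 in Atp6v1b1Cre relative to Hoxb7Cre males (adjusted p = 0.00879, edgeR) and -2.39 in females relative to males in Hoxb7Cre (adjusted p = 0.0353). The first is reported with its libraries above, as is the second.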

How the results depend on the processing

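Counts of called genes are given as pathway genes or members. Without the fold threshold the Hoxb7Cre injury comparisons called 1 member after iAKI, 5 after vAKI and 5 between the stimuli, with 49 pathway genes after vAKI. In Atp6v1b1Cre 12 pathway genes were then called after iAKI and 26 after vAKI. In controls it gave 79 pathway genes for Hoxb7Cre against total RNA, 72 pathway genes and 6 members for Atp6v1b1Cre, 27 and 3 between the drivers, and 2 members in either comparison of the sexes. With both sexes in the fit, or all 69 libraries, the Hoxb7Cre counts fell to 7 and 8 pathway genes after iAKI, and to 8 pathway genes and 1 member in each fit after vAKI, 16 pathway genes were called after vAKI in Atp6v1b1Cre, and 0 members differed between the drivers.

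Series A alone gave 11 pathway genes and 1 member after iAKI and 5 pathway genes after vAKI in Atp6v1b1Cre, and 1 (iAKI) and 3 (vAKI) members that differed between the drivers. For the driver difference in vAKI, DESeq2, filterByExpr, 25 males and the series as covariate each gave 2. With only the groups compared, Atp6v1b1Cre gave 4 pathway genes after vAKI and 1 member between the stimuli, and with 25 males 10 pathway genes after iAKI. DESeq2 gave 1 member in the sex difference for iAKI in Hoxb7Cre, and DESeq2 and filterByExpr gave 2 for vAKI. Females alone gave 4 members for Atp6v1b1Cre against total RNA, and males alone 0 between the drivers.

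The labels do not say that replicate numbers pair these libraries. Same-numbered libraries did not deviate together (mean correlation -0.178 for 2 pairs of Hoxb7Cre iAKI and control), but the pairs were too few to settle it. With the replicate block 1 member was called after iAKI and 1 after vAKI in Hoxb7Cre, 0 and 21 pathway genes in Atp6v1b1Cre, 0 members between the drivers in vAKI, 16 pathway genes between the drivers in controls, and 1 member after vAKI in female Atp6v1b1Cre mice.

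With each library left out in turn, members called ranged from 0 to 1 after iAKI and 1 to 2 after vAKI in Hoxb7Cre males, from 1 to 3 after vAKI and 1 to 3 between the stimuli in Atp6v1b1Cre males, from 0 to 1 (1 without Atp6v1b1Cre iAKI replicate 1) and 1 to 2 (2 without Hoxb7Cre vAKI replicate 4, Atp6v1b1Cre vAKI replicate 7 or Hoxb7Cre control replicate 5) between the drivers, from 0 to 3 and 0 to 1 after iAKI in Hoxb7Cre and Atp6v1b1Cre females (1 without iAKI replicate 6), and from 0 to 3 for the sex difference in vAKI. Pathway genes after iAKI in Atp6v1b1Cre ranged from 3 to 7.

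Values that changed sign were *Acvr2b* in Hoxb7Cre against total RNA (-0.031, males only), *Tgfb2* in Atp6v1b1Cre against total RNA (-0.0058, females only) and, in females, *Gdf15* after iAKI and vAKI in Hoxb7Cre (0.32 and 0.39, block), *Tgfbr2* after iAKI in Atp6v1b1Cre (-0.14, block) and vAKI in Hoxb7Cre (0.015, block, and -0.080 to 0.020 with a library left out), *Tgfb1* (-0.0023 with the series as covariate, -0.16 to 0.21 with a library left out), *Tgfb3* (-0.011 to 0.30) and *Smad7* (-0.25 to 0.69). The cause was not tested. Of the alternatives, 3229 values were classed as the same, 260 as weaker, 49 as stronger, 75 as moved and 11 as reversed. A fold change classed as the same kept its direction and its side of the adjusted p threshold. It could still cross the fold threshold and so gain or lose a call. *Smad7* after vAKI in male Hoxb7Cre pulldowns crossed it, for example, at 0.93 without vAKI replicate 7. Counts of called genes classed as the same could also differ in size. The low counts of *Inhba* and the 3 or 4 libraries a group limit what could be detected.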

Other observations

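Each of the 21 control pulldowns, with group means removed, correlated best with a different one of the 21 libraries of total RNA of the same driver, sex and age (Pearson's r across genes from 0.257 to 0.605, where the next best was at most 0.172). The labels do not pair these libraries, and the tests of pulldown against total RNA take them as independent.

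Of the genes most like the other members over the 22 male pulldowns, *Tgfbr2* had *Tyro3* (r = 0.908), *Gdf15* had *Phldb3* (r = 0.943), *Tgfb3* had *Nnmt* (r = 0.894), *Tgfbr1* had *Cadm1* (r = 0.882), *Tgfb1* had *Zfp385a* (r = 0.871) and *Tgfb2* had *B4galt4* (r = 0.762). These are descriptions over libraries that share their groups. *Inhba*, at a mean of 4.32 counts, was too low to search.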
